A study of Drosophila melanogaster with 21 samples.

Results

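The genes described here are those whose RNA level in L1 lamina neurons was highest in the middle of 3 pupal ages, 60 h after puparium formation. A gene was a member if its mean at 60 h was at least 10 RPKM (reads divided by gene length in kb and by library size) and its log2(mean + 1) at 60 h lay at least 1 above both the 40 h and the 72 h value. Of 7076 genes in the deposited RNA table, 4468 had a 60 h mean of that size and 82 met the whole rule. Leaving out 11 of them by name (hbs, trp, robo3, chp, Tbh, Con, Drl-2, stv, dpr2, dpr3 and dpr5) gave 71 members, 70 protein-coding genes and 1 long noncoding RNA. The gap between the log2(mean + 1) at 60 h and the greater of the other ages is called the prominence below. It ran from 1.02 to 3.96 with a median of 1.49, and 17 members reached 2. The RNA values of 60 h against 40 h and of 72 h against 60 h chose the members, so they are given as a description, with no test.

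L1 neurons were sorted by flow cytometry from the brains of wild-type Drosophila melanogaster pupae, and all groups share that genotype. Bulk RNA-seq covered 40 h, 60 h and 72 h after puparium formation with 2, 3 and 2 libraries, and bulk ATAC-seq, which reads open chromatin, covered the same ages with 2 libraries each. The series also lists 8 single-cell samples, 6 of them with a perturbation of the ecdysone receptor or of Hr3, which were not analysed here. The sources used here name neither the marker or driver of the sort nor whether libraries of 1 age came from separate animals. A p-value therefore measures the spread among libraries, which may be technical.

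L1 is a monopolar neuron of the lamina, the first visual neuropil of the fly, where it receives histaminergic input from photoreceptors and passes it to the medulla. In the second part of pupal life such neurons complete their targeting, build synapses and exchange cell surface programs for those of transmission. In insects, pulses of the steroid ecdysone order waves of gene expression in this period, so that a transcript can be present for a short window only.

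The sizes behind the RPKM scaling, estimated from the values, spanned 22.1 to 46.1 M (RNA) and 13.8 to 18.3 M (ATAC). They are not read counts: ATAC 40 h replicate 1 had a size of 18.3 M beside 19.8 M reads in peaks. The RNA sizes are rough, as in 40 h replicate 1 only 150 of the 664 genes used came to whole reads. Same-age RNA libraries correlated across genes at 0.977 to 0.987, and the ATAC pairs across peaks at 0.968 (40 h), 0.848 (60 h) and 0.857 (72 h). Principal component analysis of the ATAC data (78.5% of the variance on the first axis) put 60 h replicate 1 at 9.86, and replicate 2 at 44.7 towards 65.5 and 81.8, the positions of the 72 h libraries. Summed levels of the general neuron and L1 markers were 794 to 840 RPKM at 40 h, 1207 to 1341 at 60 h and 2361 to 3044 at 72 h. Lim1 was not among the genes of the table. Single markers went different ways. ort was at 3.98 and 5.02 RPKM at 40 h, 12.9 to 23.6 at 60 h, and 846 and 600 at 72 h. elav went from 74.1 and 63.4 RPKM at 40 h to 23.3 and 21.9 at 72 h, and brp from 51.5 and 54.6 to 21.1 and 24.8. Of the 7 markers in the table, 4 were called higher and 2 lower at 72 h than at 40 h. Markers of other cells were not level: the summed photoreceptor list spanned 186 to 704 RPKM among the 60 h libraries, and the summed glial list was 39.0 to 98.96 RPKM at 40 h and 60 h against 702 and 1985 RPKM at 72 h. In bulk RNA, fewer cells of a type and less RNA per cell cannot be told apart.

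Across the members the mean level was 0.536 to 828 RPKM at 40 h (median 6.72), 10.1 to 2808 RPKM at 60 h (median 48.0) and 1.22 to 1356 RPKM at 72 h (median 12.8). At 60 h, 26 members stood at 100 RPKM or more, 5 of those at a level between 504 and 2808 RPKM, and 16 members were under 20 RPKM. The 60 h mean was 2.04 to 24.8 times the higher of the other means, with a median of 2.88. In 66 members every 60 h library lay above every 40 h and every 72 h library, a separation that the rule nearly fixes and that 10.7% of all genes with a 60 h mean of at least 10 RPKM also had. The remaining 5 (Cpn, Gbeta76C, inaC, CG9150 and rtp) overlapped between ages.

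**Figure D1:**
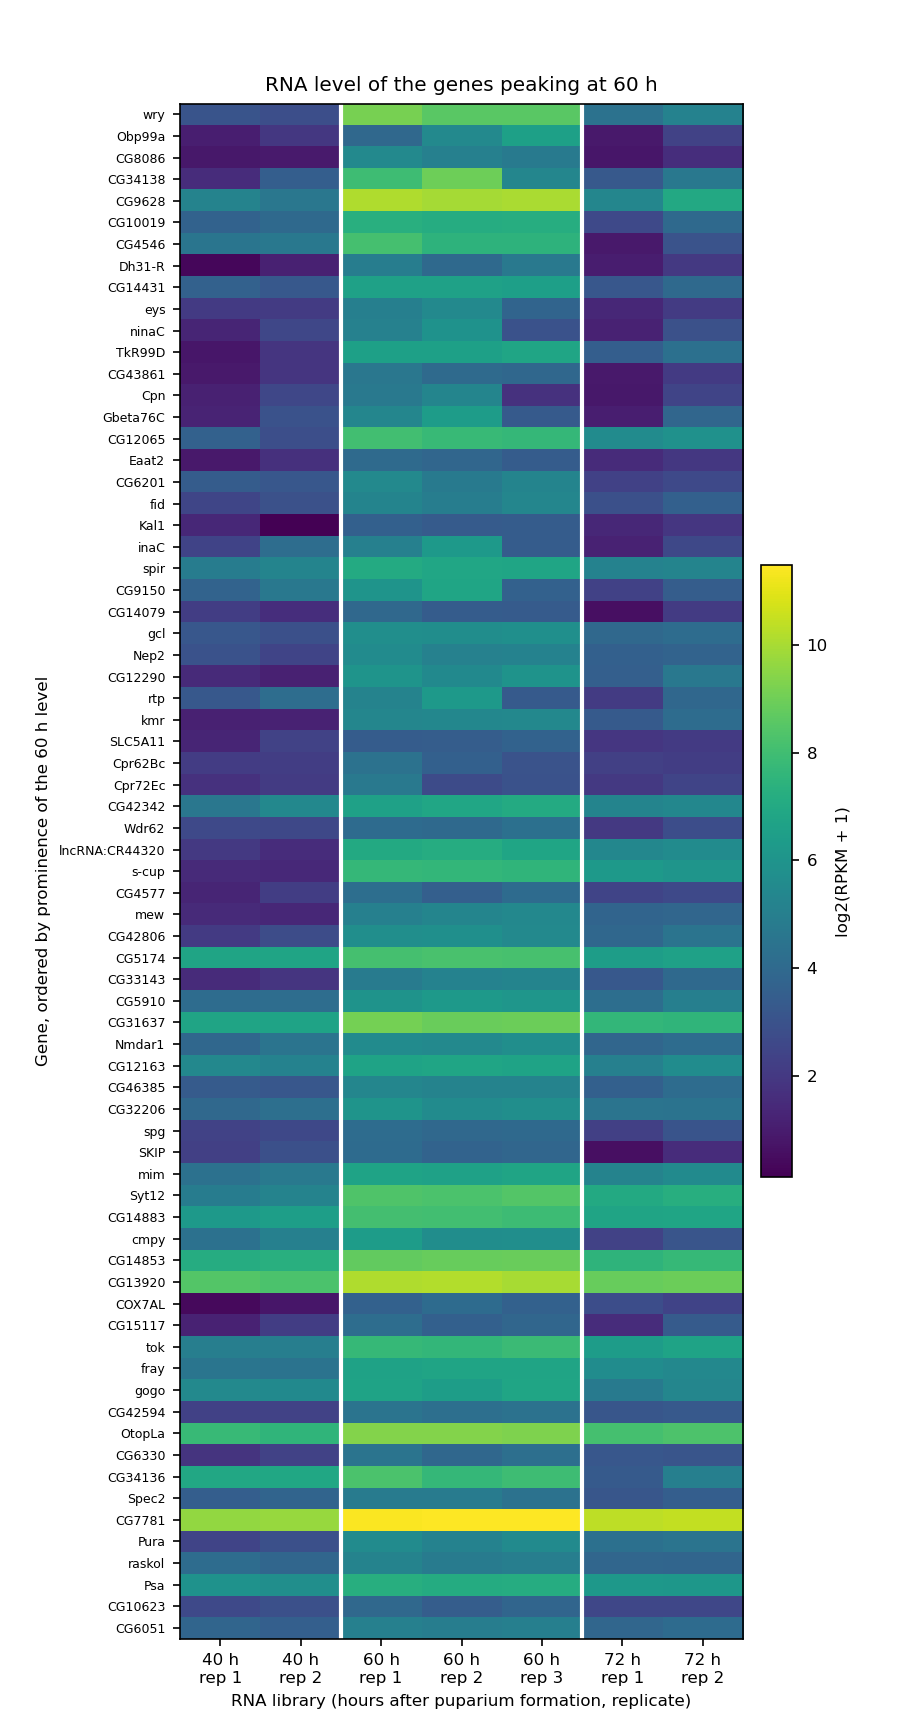
RNA level of the 71 genes, as log2(RPKM + 1), in each of the 7 libraries (columns, grouped by age with white lines between ages) with genes ordered from the greatest prominence at the top. The 60 h columns are the brightest in 66 of the 71 rows, and the third 60 h column is darker than the other 60 h columns for genes such as Cpn, ninaC, Gbeta76C and CG34138.

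wry (weary), which encodes a membrane protein with EGF repeats described as a Notch ligand, had the greatest prominence of all members, 3.96. Its levels were 7.29 and 6.15 RPKM at 40 h, 570.4, 375 and 375 RPKM at 60 h, and 19.98 and 34.7 RPKM at 72 h. The lowest 60 h library was therefore 10.8 times the highest library of any other age. Of the rise from 40 h to 60 h, 4.76% was left at 72 h, reckoned as the 72 h mean minus the 40 h mean over the 60 h mean minus the 40 h mean.

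s-cup, known from a group of genes transcribed late in the male germ line, stood at 1.74 and 1.68 RPKM at 40 h, 204, 197 and 187 RPKM at 60 h, and 73.6 and 64.9 RPKM at 72 h. Its gap between 40 h and 60 h on the log2 scale, 6.18, was the greatest among the members. At 72 h the level had come down only in part, and 34.8% of the rise was left. Of the 21 genes of a spermatid list that holds s-cup, only s-cup and 1 other were in the table, and that other gene passed no contrast.

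Neurotransmitter and peptide receptors made up a small group. TkR99D, a receptor for tachykinin peptides, was at 0.752 and 2.66 RPKM at 40 h, 96.1, 95.1 and 110.4 RPKM at 60 h, and 10.5 and 19.2 RPKM at 72 h. Dh31-R, the receptor of diuretic hormone 31, was at 0.231 and 1.21 RPKM, then 29.4, 14.8 and 25.4 RPKM, then 1.05 and 2.99 RPKM. For both genes all 60 h libraries were high and all others low, with 13.3% and 5.77% of the rise left at 72 h. Nmdar1, an NMDA-type glutamate receptor subunit, already stood at 14.2 and 21.6 RPKM at 40 h, reached 48.0, 43.6 and 52.5 RPKM at 60 h and was at 13.5 and 16.4 RPKM at 72 h. Its 72 h mean was below its 40 h mean by 10.0% of the rise. Of the other 30 tested transmitter receptors, 11 rose and 5 fell from 40 h to 60 h, where 25.2% and 22.5% of all 6939 tested genes were called higher and lower. From 60 h to 72 h 11 of them rose and 5 fell (16.6% and 16.4% of all genes).

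Synaptic and adhesion genes among the members included Syt12, mew and gogo; 7 surface genes that met the numeric rule (hbs, robo3, Con, Drl-2, dpr2, dpr3 and dpr5) had been left out by name. Syt12, a synaptotagmin-family protein, was at 28.9 and 35.4 RPKM at 40 h, 331, 309 and 349 RPKM at 60 h, and 129.7 and 150.1 RPKM at 72 h. The 34 other tested presynaptic genes moved mostly upward in both steps: 22 rose and 5 fell from 40 h to 60 h, and 21 rose and 5 fell from 60 h to 72 h. mew, an integrin alpha subunit that binds laminin, was at 1.79 and 1.62 RPKM, then 32.7, 37.8 and 41.7 RPKM, then 12.8 and 13.7 RPKM. For both genes the ages did not overlap, and the 72 h libraries lay between the others, with 36.2% and 32.3% of the rise left. Of 74 other tested cell surface recognition genes, 14 rose and 35 fell to 60 h, and 14 rose and 25 fell to 72 h. Among the 74 are Con, hbs, Drl-2 and robo3, which met the numeric rule, so their courses were largely fixed by it. Beside the surface and the presynaptic counts, 25.2% of all tested genes rose and 22.5% fell to 60 h, and 16.6% and 16.4% to 72 h. gogo, a guidance receptor of photoreceptor axons, was at 43.7 and 44.7 RPKM, then 105, 86.9 and 111 RPKM, then 26.5 and 39.0 RPKM, so that its 72 h libraries were both under its 40 h libraries.

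For wry, the 18 other tested Notch pathway genes give the surrounding measurement. From 40 h to 60 h 3 of them rose and 7 fell, and from 60 h to 72 h 3 rose and 6 fell. These shares are counted over few genes and stand beside 25.2% and 22.5%, and 16.6% and 16.4%, of all tested genes.

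Several of the sharpest members are listed only by a number. CG9628 was at 36.2 and 24.0 RPKM at 40 h, at 1126, 1002 and 1049 RPKM at 60 h, and at 38.8 and 127 RPKM at 72 h. CG8086 had the largest ratio of all members, 24.8, with 0.827 and 0.922 RPKM at 40 h, 43.5, 32.2 and 27.3 RPKM at 60 h, and 0.738 and 2.03 RPKM at 72 h. In both genes the 60 h libraries stood far from the rest, and the second 72 h library was the higher of its pair. CG10019 was at 11.97 and 15.3 RPKM, then 154, 139.8 and 147 RPKM, then 5.25 and 15.1 RPKM. CG14431 was at 11.4 and 8.64 RPKM, then 96.6, 98.1 and 91.4 RPKM, then 8.12 and 15.2 RPKM. CG12065 was at 11.6 and 6.10 RPKM, then 266, 218 and 204 RPKM, then 47.7 and 57.8 RPKM. For CG10019 and CG14431 the 72 h and 40 h libraries overlapped, and for CG12065 they did not. In all, 32 members (45.1%) were listed in the table under a CG number, as were 33.5% of all its genes, although some of them have a name elsewhere, such as CG6201 (Idua).

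Enzymes and transport proteins were also among the members, and the secreted protein gene Kal1 is given beside them. These genes were put together after their values were seen, and no list of them was tested. CG4546, an arginine kinase family gene, was at 22.5 and 24.8 RPKM at 40 h, 284, 173 and 173 RPKM at 60 h, and 0.875 and 7.28 RPKM at 72 h. CG6201, which encodes the lysosomal enzyme alpha-L-iduronidase (Idua), was at 9.61 and 8.10 RPKM, then 43.8, 26.9 and 37.5 RPKM, then 3.995 and 5.18 RPKM. Both ended below their starting level. Eaat2, an excitatory amino acid transporter, was at 0.862 and 2.28 RPKM, then 15.3, 13.4 and 9.73 RPKM, then 1.85 and 2.95 RPKM. Kal1, the fly counterpart of the secreted protein anosmin, was the member with the lowest 60 h mean, with 1.62 and 0.0873 RPKM at 40 h, 11.2, 9.45 and 9.72 RPKM at 60 h, and 1.62 and 2.76 RPKM at 72 h. Other enzymes and transport proteins were Nep2, a neprilysin-family metalloprotease, tok, a tolloid-related protease, Psa, an aminopeptidase, CG12163, a cathepsin (CtsF), SLC5A11, a sodium-solute cotransporter, and COX7AL, a cytochrome c oxidase subunit. Their 60 h means ran from 10.6 RPKM for SLC5A11 to 214 RPKM for tok.

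Genes of the actin cytoskeleton and small GTPase signalling recurred among the members with more moderate gaps. spir, an actin nucleator, had a 60 h mean of 120.2 ± 12.5 RPKM (SD, n = 3) and mim, a membrane-bending I-BAR protein, one of 102 ± 4.99 RPKM. spg, a DOCK-family exchange factor, stood at 15.5 ± 1.03, raskol, a Ras GTPase-activating protein, at 31.7 ± 4.31, and Spec2, a Cdc42 effector, at 25.4 ± 4.25 RPKM (SD, n = 3). Their prominences lay between 1.03 for raskol and 1.74 for spir. These genes were grouped by role after their values were seen, and no list of them was tested.

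The members highest at 60 h included genes already abundant at 40 h, with small gaps, beside CG9628, whose prominence was 3.66. CG7781 was at 810.0 and 845 RPKM at 40 h, 2719, 2843 and 2862 RPKM at 60 h, and 1305 and 1407 RPKM at 72 h. CG13920, an entry that also carries the name of the acetylcholine receptor chaperone NACHO, was at 351 and 309.7 RPKM, then 1106, 1157 and 1017 RPKM, then 454 and 490.4 RPKM. OtopLa, an otopetrin-like proton channel, was at 220.1 and 187 RPKM, then 661, 664 and 617 RPKM, then 282 and 316 RPKM. Within each age these libraries differed by far less than the ages did, and the prominences were 1.05, 1.21 and 1.11. The same holds for fray, a kinase that regulates cation-chloride cotransporters, with 102, 106 and 109 RPKM at 60 h against 21.0 to 49.4 RPKM in the other libraries.

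The threshold fell in a continuous range of values. Just inside it were Pura (1.04), raskol (1.03), and Psa, CG10623 and CG6051 (1.02 each). Just outside were qtc and lncRNA:CR44411 (0.98 each), CG42399 (0.97), NLaz (0.96) and CG42700 (0.95). Taken over the members, the share of the rise left at 72 h had a median of 9.57%. In 19 members the 72 h mean was below the 40 h mean, in 36 between 0% and 25% of the rise was left, and in 16 more was left, up to 39.5% for Pura.

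A subset of members differed strongly among the 60 h libraries. For Cpn, ninaC, Gbeta76C, CG34138, CG9150, rtp, inaC and eys, 60 h replicate 2 was more than 2 times replicate 3, which 0.627% of all genes with a 60 h mean of at least 10 RPKM also showed (28 of 4468). Most of these are eye genes: Cpn encodes the photoreceptor calcium-binding protein calphotin, ninaC a myosin with a kinase domain, Gbeta76C the visual G protein beta subunit, inaC an eye protein kinase C, eys the spacemaker of the interrhabdomeral space, and rtp retinophilin. ninaC was at 1.43 and 4.84 RPKM at 40 h, 33.7, 59.9 and 6.96 RPKM at 60 h, and 1.33 and 6.73 RPKM at 72 h. Cpn was at 1.27 and 4.78 RPKM, then 24.9, 38.5 and 2.32 RPKM, then 0.800 and 4.41 RPKM, and Gbeta76C at 1.40 and 6.89 RPKM, then 39.3, 82.9 and 8.99 RPKM, then 1.12 and 13.8 RPKM. At 60 h replicate 2 was the highest and replicate 3 the lowest for each of the 3 genes, and the second library was the higher at 40 h and 72 h. CG34138, whose role is not annotated in the sources used here, had the same order with 245, 496 and 39.0 RPKM at 60 h. Obp99a, an odorant-binding protein gene, had another order, with replicate 3 the highest and replicate 1 the lowest. It was at 14.5, 43.7 and 95.9 RPKM at 60 h, over 0.848 to 4.09 RPKM at the other ages.

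Part of the photoreceptor list had the same order of 60 h libraries. Of its 22 genes 16 were in the table, 3 of them members (ninaC, inaC and eys), and Rh3, Rh4, Rh5, Rh6, ninaA and Hdc were not in the table. The summed level was 47.1 and 142 RPKM at 40 h, 396, 704 and 186 RPKM at 60 h, and 176 and 261 RPKM at 72 h. Among the genes left out by name, chp was at 98.3, 186 and 19.7 RPKM and trp at 64.5, 124 and 16.7 RPKM in the 60 h libraries, in the same order. Other list genes did not follow it: rdgB was at 49.2, 66.0 and 52.4 RPKM at 60 h and at 107 and 83.2 RPKM at 72 h, and norpA was lower in replicate 2 than in replicate 3 (a ratio of 0.765). Of the 13 list genes that are not members, 4 rose and 1 fell from 40 h to 60 h, and 2 rose and 3 fell from 60 h to 72 h. The 13 include trp and chp, which met the numeric rule, so their courses were largely fixed by it. The counts over these few genes stand beside 25.2% and 22.5%, and 16.6% and 16.4%, of all tested genes. The part of photoreceptor RNA in the levels of these members was not tested. With 60 h replicate 3 taken alone, 57 of the 71 members still met the rule, wry and s-cup among them. The 14 that did not were ninaC, Gbeta76C, inaC, rtp, Cpn, CG9150, Eaat2, Cpr62Bc, Cpr72Ec, CG14079, cmpy, Kal1, Spec2 and raskol. Across the 57 the ratio of replicate 2 to replicate 3 had a median of 0.955.

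**Figure D2:**
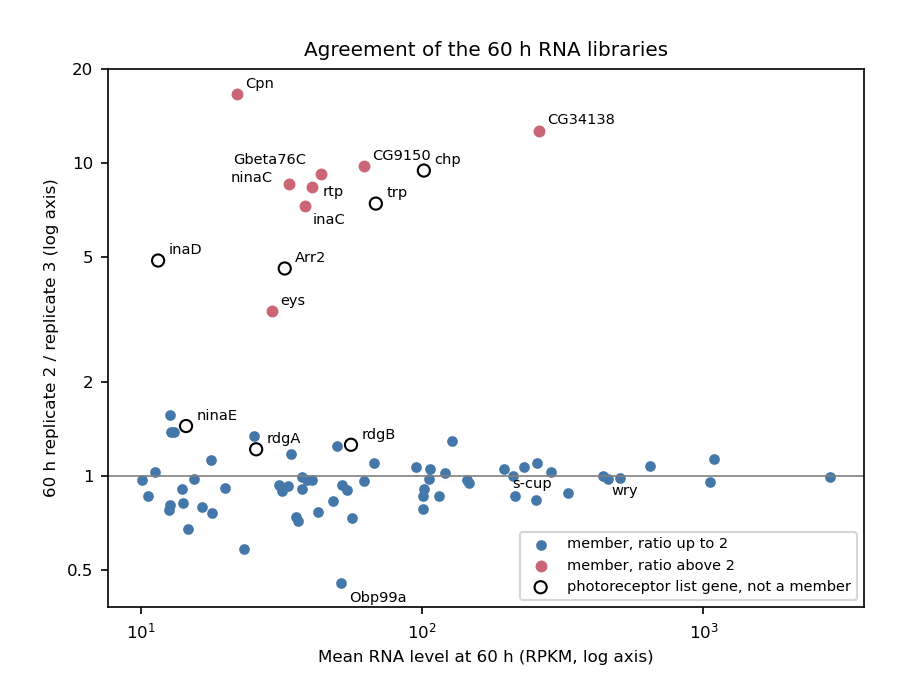
Mean RNA level at 60 h (RPKM, log axis) against the ratio of 60 h replicate 2 to replicate 3 (log axis) for the 71 genes (filled points) and for photoreceptor list genes outside them with a 60 h mean of at least 10 RPKM (open circles). Most points lie near a ratio of 1, and 8 members lie above 2, from 3.37 for eys to 16.6 for Cpn. The open circles of chp and trp, which are not members, lie at 9.47 and 7.43.

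The contrast of 72 h with 40 h was not used by the rule, although its libraries were, and it shows where the members ended relative to where they began. More of them ended higher than lower: with limma across all tested genes, 29 of 71 were higher at 72 h (40.8%, against 30.2% of all genes tested) and 5 were lower (7.04%, against 29.1%), and 37 did not pass the adjusted p threshold of 0.05. The median change was 0.40 on the log2(RPKM + 1) scale, against -0.01 over all 6939 tested genes. Members had to be high in between, so a level that had come down only in part counts as higher here. The 40 h and 72 h means also entered the rule, which all tested genes did not have to meet. Both the higher and the lower share are therefore set beside an unlike group and are a description.

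s-cup had the largest difference, 4.69 ± 0.13 (SE, adjusted p = 1.25e-09). lncRNA:CR44320 followed with 3.70 ± 0.19 (adjusted p = 6.14e-08), from 3.00 and 1.98 RPKM at 40 h through 128, 143 and 110.4 RPKM at 60 h to 40.2 and 48.2 RPKM at 72 h. Its span and that of CG12290 overlap on arm 3R (a gap of -0.02 kb). CG12290 was next, at 2.79 ± 0.33 (adjusted p = 3.16e-05), with 1.80 and 1.25, then 63.7, 44.4 and 60.6, then 10.7 and 24.7 RPKM, and reads may be shared between these neighbours. TkR99D was higher by 2.59 ± 0.33 (adjusted p = 6.08e-05) and kmr, a gene with a pleckstrin homology domain, by 2.56 ± 0.25 (adjusted p = 8.42e-06). kmr stood at 1.23 and 1.28 RPKM at 40 h, 39.6, 40.4 and 41.5 RPKM at 60 h, and 8.98 and 16.6 RPKM at 72 h, with no overlap between ages. wry was higher at 72 h by 1.83 ± 0.26 (adjusted p = 1.18e-04), mew by 2.39 ± 0.19 (adjusted p = 1.71e-06) and Syt12 by 2.09 ± 0.13 (adjusted p = 2.86e-07).

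The 5 members that ended lower were CG34136, CG4546, cmpy, SKIP and CG6201. CG34136 went from 123 and 119 RPKM at 40 h through 308, 208 and 249 RPKM at 60 h to 9.16 and 31.6 RPKM at 72 h, a change of -2.74 ± 0.40 (SE, adjusted p = 1.67e-04). CG4546 changed by -2.64 ± 0.52 (adjusted p = 0.00125). cmpy (crimpy), which acts in BMP signalling at the fly neuromuscular junction, went from 19.8 and 32.4 RPKM through 83.7, 50.5 and 52.2 RPKM to 4.12 and 7.69 RPKM, a change of -1.98 ± 0.32 (adjusted p = 3.05e-04). SKIP, named for its interaction with the Shal potassium channel, went from 3.85 and 6.40 RPKM through 15.8, 12.5 and 13.7 RPKM to 0.504 and 1.93 RPKM, a change of -1.51 ± 0.34 (adjusted p = 0.00300). In each of these 4 genes, and in CG6201, both 72 h libraries lay below both 40 h libraries. CG6201 changed by -0.82 ± 0.24 (adjusted p = 0.0136). With 40 h replicate 1 or 72 h replicate 1 left out it no longer passed. The count of lower members was 8 without 72 h replicate 2 and under quantile normalization.

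CG9628 was higher at 72 h by 1.23 ± 0.40 (adjusted p = 0.0229). That call rests on the second 72 h library, at 127 RPKM against 38.8 RPKM in the first, and it was lost without that library, without 40 h replicate 2 and in a fit with no variance trend. The summed glial markers rose over the same interval, from 39.0 and 69.7 RPKM at 40 h to 702 and 1985 RPKM at 72 h, and their part in the members' differences was not tested.

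**Figure D3:**
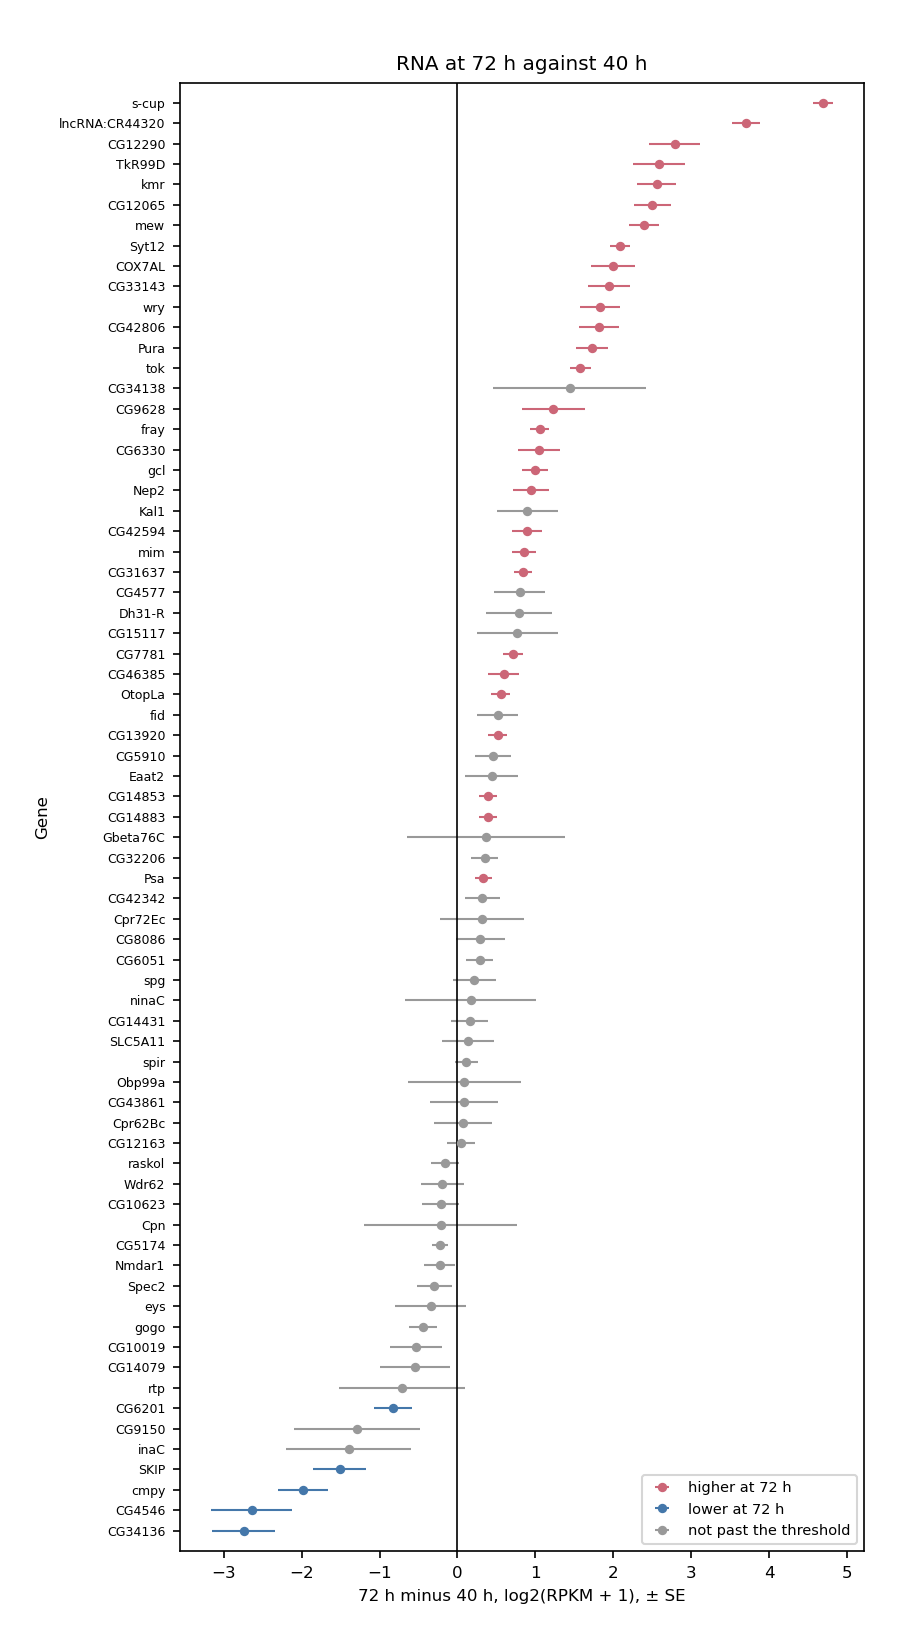
Difference of each of the 71 genes between 72 h and 40 h on the log2(RPKM + 1) scale (points, limma estimate; bars, 1 SE), ordered by size and coloured by whether it passed an adjusted p of 0.05. The 29 genes higher at 72 h run up to 4.69 for s-cup and the 5 lower genes down to -2.74 for CG34136.

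Open chromatin was the readout independent of the rule. Peaks were assigned to the nearest gene as the deposited table gives it, and their level was read as RPKM of each peak. Of the 71 members, 59 were the nearest gene of at least 1 peak, with 324 peaks in all, a median of 4 per member, and 34 at most, for CG32206. The 12 without a peak were ninaC, CG9150, CG10623, Cpr62Bc, Cpr72Ec, COX7AL, Obp99a, s-cup, CG34138, Psa, Cpn and CG42806. After the lowest 10% of peaks by mean level were left out, 306 member peaks were tested.

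Member peaks were called more often than all peaks as rising to 60 h and as falling after it. From 40 h to 60 h, 84 of the 306 rose (27.5%, against 10.7% of all 23508 tested peaks) and 62 fell (20.3%, against 16.0%). From 60 h to 72 h, 2 rose (0.654%, against 0.723%) and 56 fell (18.3%, against 4.39%). From 40 h to 72 h, 70 rose (22.9%, against 26.0%) and 133 fell (43.5%, against 29.4%). In 37 members at least 1 peak rose to 60 h and in 33 at least 1 fell after it. Such counts grow with the number of peaks per gene, and they were not taken over all genes. The median log2 change of member peaks was 0.07, -0.41 and -0.37 in these 3 contrasts, against 0.08, -0.03 and 0.04 over all tested peaks. Peaks of 1 gene share that gene and are not replicates.

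**Figure D4:**
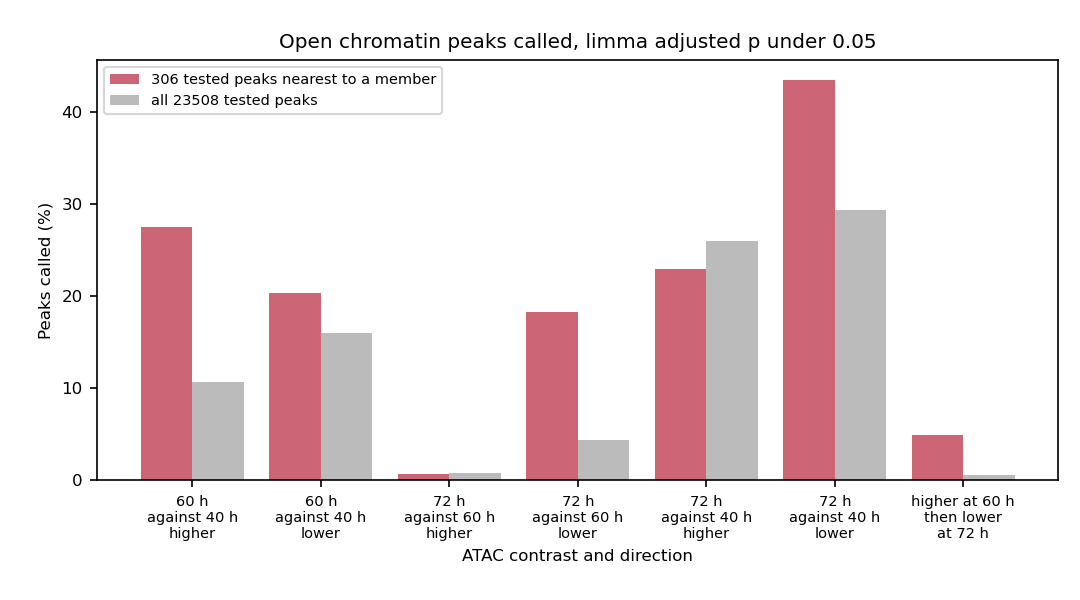
Percent of tested ATAC peaks called at an adjusted p under 0.05, by contrast and direction, for the 306 peaks nearest to a member (red bars) and for all 23508 tested peaks (grey bars). The red bar stands above the grey one for peaks higher at 60 h than at 40 h (27.5% and 10.7%) and for peaks lower at 72 h than at 60 h (18.3% and 4.39%).

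These counts depended on single ATAC libraries. Without 60 h replicate 1, the share of member peaks that rose to 60 h was 26.9% against 25.8% of all peaks, near the background; without each other library it was 19.1% to 25.8% against 5.76% to 10.0%. The 62 that fell to 60 h became 17 without 40 h replicate 2 (5.8%, against 5.7%). The 56 that fell from 60 h to 72 h became 17 without 40 h replicate 2, 27 without 60 h replicate 1, 98 without 60 h replicate 2, 27 without 72 h replicate 1 and 11 without 72 h replicate 2. In those fits the member shares were 5.8%, 9.18%, 32.6%, 8.71% and 3.51%, against 2.13%, 1.65%, 11.9%, 1.82% and 0.659% of all peaks. A group left with 1 library is assumed there to vary like the other groups.

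Peaks within 1000 bp of the deposited gene start were present at 50 members. Of the 77 tested, 12 rose and 14 fell from 40 h to 60 h (15.6% and 18.2%, against 5.64% and 10.6% of all peaks so placed). From 60 h to 72 h, 1 rose and 15 fell (1.30% and 19.5%, against 0.311% and 3.05%). From 40 h to 72 h, 7 rose and 46 fell (9.09% and 59.7%, against 9.77% and 32.7%). The difference between near and distant peaks was not tested.

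At wry the peak over the gene start (2L:1835624-1836792, coordinates as deposited) was at 99.9 and 139 RPKM at 40 h, then 149.8 and 129.6 RPKM, then 65.4 and 67.6 RPKM. It was open before the RNA was high, did not pass from 40 h to 60 h (0.24 ± 0.21, adjusted p = 0.42), and fell to 72 h (-1.06 ± 0.21, adjusted p = 0.021). Against 40 h it was lower at 72 h (-0.82 ± 0.21, adjusted p = 0.0069), while the RNA was higher. A neighbouring peak 900 bp away (2L:1837438-1838346) fell from 40 h to 60 h (-0.67 ± 0.21, adjusted p = 0.035). A distant peak 20019 bp from the start (2L:1856557-1856809) had 10.3 and 6.85, then 43.9 and 46.2, then 29.8 and 39.4 RPKM, but was among those left out of the test for their low mean level.

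Of the 5 members that ended lower at 72 h, 3 also had a start peak that fell after 60 h. The start peak of cmpy (3L:20718934-20719471) was at 123 and 169, then 136 and 128, then 43.4 and 49.2 RPKM, a change after 60 h of -1.49 ± 0.21 (adjusted p = 0.0085). That of CG34136 (2L:21096515-21097511) was at 128 and 159, then 109 and 82.3, then 36.7 and 24.9 RPKM, a change of -1.62 ± 0.24 (adjusted p = 0.010). That of CG4546 (3R:15845852-15846627) was at 148 and 210.2, then 131 and 110.3, then 46.4 and 49.2 RPKM, a change of -1.31 ± 0.21 (adjusted p = 0.013). None of the 3 passed from 40 h to 60 h, and in all of them both 72 h libraries were the lowest. The start peak of SKIP (3R:22133332-22134119) did not pass after 60 h (-0.48 ± 0.28, adjusted p = 0.32). That of CG6201 (2L:11112729-11113111) had already fallen at 60 h (-0.93 ± 0.22, adjusted p = 0.0089) and did not pass after it (-0.20 ± 0.22, adjusted p = 0.60). Such a fall was not particular to the members that ended lower. Start peaks also fell after 60 h at wry, TkR99D and lncRNA:CR44320 (-1.06, -0.75 and -0.94), whose RNA was higher at 72 h than at 40 h. Of the 77 tested member peaks within 1000 bp, 15 fell after 60 h (19.5%).

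In 12 members 15 peaks rose to 60 h and fell after it, the shape of the RNA. This was 4.90% of tested member peaks, against 0.591% of all tested peaks (139 of 23508). No member peak did the reverse, a count that says little, as only 0.723% of all tested peaks rose from 60 h to 72 h. The members were CG15117, CG32206, CG42342, CG42594, CG8086, CG9628, SKIP, TkR99D, Wdr62, gcl, gogo and spg, with 2 peaks each at CG32206, CG8086 and spg. At TkR99D the peak over the start (3R:29969192-29970053) was at 50.9 and 58.1, then 127 and 131, then 72.3 and 80.3 RPKM, with changes of 1.23 ± 0.19 (adjusted p = 4.8e-04) and -0.75 ± 0.19 (adjusted p = 0.047). At CG9628 the start peak (3L:14622388-14622844) was at 31.5 and 31.1, then 77.0 and 59.3, then 30.3 and 22.95 RPKM, with changes of 1.09 ± 0.24 (adjusted p = 0.0050) and -1.32 ± 0.24 (adjusted p = 0.016). At CG8086 a peak over the start (2L:8257098-8257736) was at 30.8 and 29.1, then 75.2 and 54.3, then 29.6 and 28.6 RPKM. These 3 start peaks were high in both 60 h libraries, and those of CG9628 and CG8086 were low in the other 4. At TkR99D both 72 h libraries lay between those of 40 h and 60 h. Its change from 40 h to 72 h did not pass (0.48 ± 0.19, adjusted p = 0.0503).

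Most of the other peaks of this shape lay away from the gene start. At gcl, the germ cell-less gene, whose product sits at the nuclear envelope, a peak 2055 bp from the start (2R:8726313-8726686) was at 13.7 and 12.97, then 109 and 77.5, then 45.9 and 47.8 RPKM. At gogo a peak 22363 bp from the start (3L:20272433-20272770) was at 16.8 and 15.99, then 118 and 92.8, then 55.1 and 46.7 RPKM. At CG42342 a peak 29900 bp away (3R:16532670-16533512) was at 12.9 and 14.1, then 128 and 103, then 57.4 and 63.0 RPKM. All 3 were still higher at 72 h than at 40 h (1.74 ± 0.23, 1.57 ± 0.22 and 2.07 ± 0.21, adjusted p = 1.2e-04, 1.6e-04 and 2.1e-05). The peaks of spg (3R:28857438-28857961), Wdr62 (2L:1906833-1907910) and SKIP (3R:22211329-22211698) did not pass between 72 h and 40 h (0.15 ± 0.21, -0.11 ± 0.26 and -0.35 ± 0.31, adjusted p = 0.57, 0.73 and 0.34). The count of 15 was 3 to 8 without any 1 of the libraries other than 60 h replicate 2, namely 6 and 3 without 40 h replicates 1 and 2, 6 without 60 h replicate 1, and 8 and 4 without 72 h replicates 1 and 2. Without 60 h replicate 2, the library nearer to 72 h on the first principal axis, it was 29. The member share stayed above that of all peaks in each of these fits, at the least 1.02% against 0.166% without 40 h replicate 2.

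**Figure D5:**
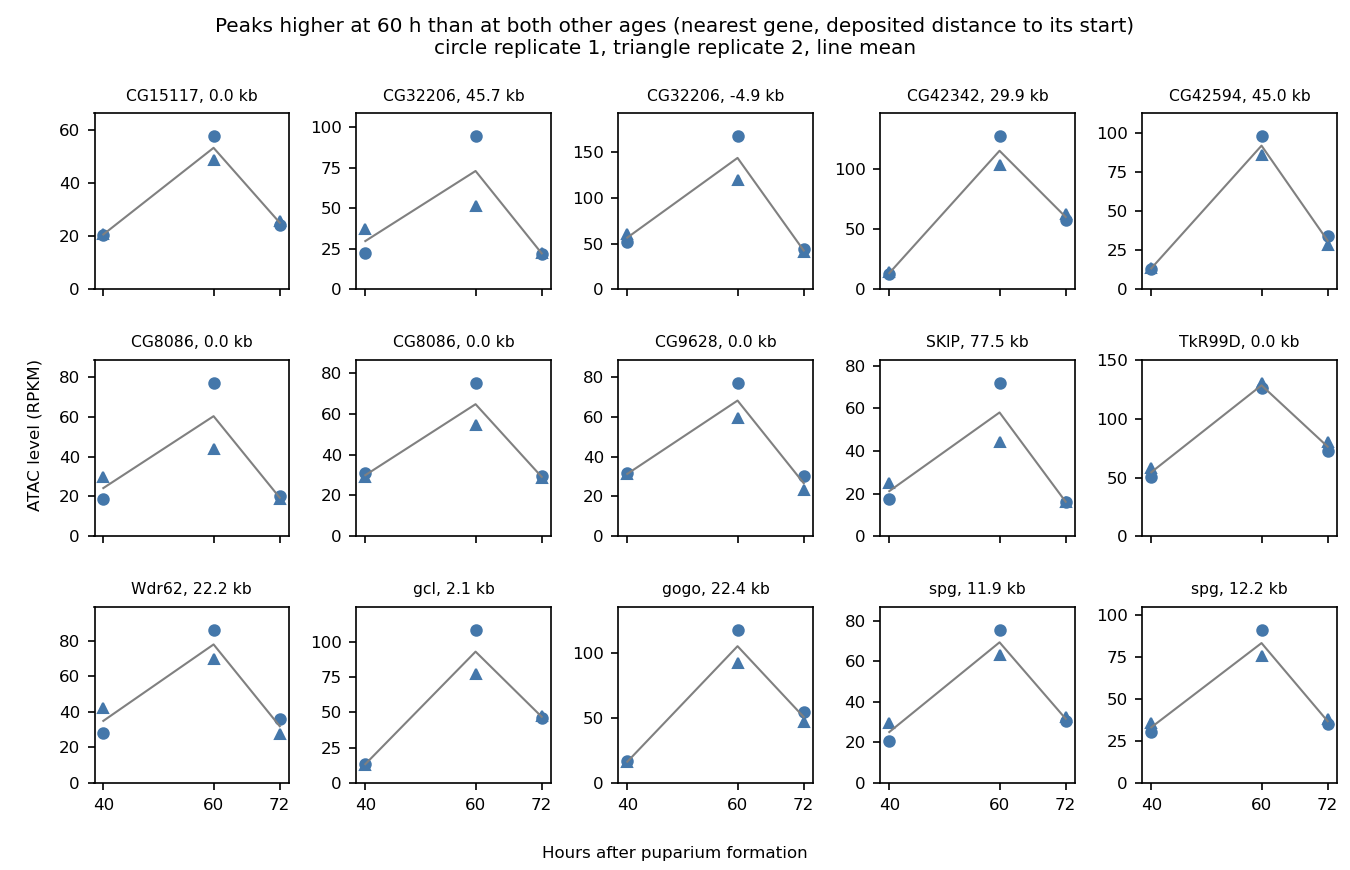
ATAC level (RPKM) against age (hours after puparium formation) for the 15 peaks that were higher at 60 h than at both other ages, with replicate 1 as circles, replicate 2 as triangles and the mean as a line. Each title gives the nearest gene and the deposited distance to its start, and in every panel except that of TkR99D the first 60 h library is the higher of its pair.

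Peaks that rose did not all fall again. In all 84 that rose from 40 h to 60 h, both 60 h libraries lay above both 40 h libraries, which the call itself nearly fixes. The 72 h mean was below the 60 h mean in 63 of the 84, 15 passed as falling, and 61 were still higher at 72 h than at 40 h. Over all tested peaks 2518 rose to 60 h, and 139 of these passed as falling. The other counts were not taken over all peaks. At lncRNA:CR44320 a peak 11741 bp from its start (3R:26206991-26207655) was at 5.33 and 4.79, then 65.1 and 67.0, then 63.0 and 63.2 RPKM, a rise of 3.47 ± 0.24 (adjusted p = 1.0e-05) with a change of -0.06 ± 0.24 after 60 h (adjusted p = 0.88). The start peak of kmr (3R:13714726-13715509) was at 41.4 and 46.5, then 106 and 113, then 71.3 and 83.1 RPKM, and rose by 1.30 ± 0.20 (adjusted p = 3.8e-04). A peak at Kal1 (3R:24142777-24143526) was at 49.5 and 53.8, then 125 and 109, then 83.7 and 74.2 RPKM and rose by 1.16 ± 0.19 (adjusted p = 7.8e-04). A small peak at Dh31-R, 19602 bp from its start (2R:13276067-13276325), was at 16.8 and 13.1, then 41.4 and 46.0, then 25.4 and 40.8 RPKM and rose by 1.49 ± 0.29 (adjusted p = 0.0025). As in all 84, the 60 h libraries of these 4 peaks were clear of the 40 h libraries, and none of the 4 passed from 60 h to 72 h.

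The photoreceptor-type members had open chromatin values of their own. The only peak of Gbeta76C (3L:19688931-19689684) was at 17.1 and 15.3, then 67.9 and 55.1, then 47.9 and 64.5 RPKM, a rise of 1.85 ± 0.24 to 60 h (adjusted p = 1.4e-04). The only peak of rtp (3R:5236965-5237278) was at 15.6 and 13.02, then 21.6 and 29.8, then 56.9 and 68.1 RPKM, and it rose from 60 h to 72 h by 1.26 ± 0.27 (adjusted p = 0.027), when the RNA was lower. inaC had 6 peaks, of which 3 rose and 1 fell to 60 h. That with the smallest adjusted p (2R:16903958-16904433) rose by 2.00 ± 0.20 (adjusted p = 3.4e-05). The only peak of eys (2L:2311229-2312086) did not pass from 40 h to 60 h (0.12 ± 0.21, adjusted p = 0.69). It fell from 60 h to 72 h (-0.91 ± 0.21, adjusted p = 0.032). ninaC and Cpn had no peak.

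The members were spread over the arms, 25 on 3R, 17 on 2L, 12 on 3L, 10 on 2R, 7 on X and 0 on the fourth chromosome. As shares these were 35.2%, 23.9%, 16.9%, 14.1% and 9.86%, against 24.5%, 17.6%, 19.3%, 19.8% and 17.6% of the table for the same arms. The median gene span was 9.35 kb, against 3.28 kb over the table, as RefSeq gives them. A pair lay next to each other with no gene between, rtp and CG12163 on 3R at a distance of 0.336 kb, besides the overlapping lncRNA:CR44320 and CG12290. rtp and CG12163 differed in their 60 h libraries, where CG12163 was at 105, 110.4 and 105 RPKM and rtp at 35.9, 77.1 and 9.20 RPKM.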

How the data were processed

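The RNA table holds RPKM per gene for 7 libraries, per the file headers, and the ATAC table a level per peak for 6 libraries, deposited without a unit; multiplied by peak width, 100% of values in each library came within 0.1 of a whole number of reads, so it was read as RPKM. Per the peak names, the authors called peaks once, on the merged libraries; the nearest gene and distance are theirs. Bowtie2 2.2.9, MACS2 2.1.1, bedtools and edgeR 3.26.8 are named in the submitters' processing notes without a role. The genome build is not given in the sources used here; coordinates are printed as deposited. Gene names, arms and spans came from the RefSeq gene table, Release 6 (6643 symbols equal, 411 through a synonym, 22 unmatched); how reads of paralogs or of overlapping genes were counted is not given.

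Values were taken as log2(RPKM + 1), which understates changes of low genes. Genes with at least 1 RPKM in at least 2 libraries (6939) and peaks above the lowest 10% by mean level (23508) were tested with limma 3.58.1 in R 4.3.3, 1 fit per assay over the 3 ages with trended moderation and no block (4 and 3 residual degrees of freedom), two-sided, with Benjamini-Hochberg adjustment over all features of a contrast. For ATAC the design named a test by unit, and RPKM led to limma. Scaled sizes were 22.1 to 46.1 M (RNA) and 13.8 to 18.3 M (ATAC, beside 12.7 to 19.8 M reads in peaks), and spread between libraries, not counting, sets the precision.

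On simulated data for 60 h against 40 h with 200 changed features, the RNA fit (6887 genes) recovered 82% of changes of log2 1 and 97% of log2 2. The ATAC fit (23510 peaks) recovered 10% and 67%. In the real contrast 1748 genes were called higher and 1564 lower, and 2518 peaks higher and 3754 lower. The adjustment is stricter where fewer features change, so these recoveries do not measure the power of the real fits.

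Members, lists, rules and tests were chosen with earlier results of these data known. Named were wry and s-cup, the 20 members of greatest prominence, list members, the 5 most changed each way among those called from 40 h to 72 h, members with a peak called in opposite directions in the 2 steps, and the 5 genes on each side of the threshold; further members were named by role or level after their values were seen. Alternatives were other pseudocounts, filters, scaling, variance trend, a replicate block, left-out libraries, peaks near the start, and, added after seeing the data, 57 members kept with 60 h replicate 3 alone and peaks without the 4 members with the most. Single-cell samples were not analysed here, and no sequence was used here.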

Additional observations from a re-analysis of the deposited data

How the results depend on the processing

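Between 40 h and 72 h, the RNA estimates of 14 of the 44 members named changed sign with 1 library left out; none of the 14 passed the test with all libraries, and none of the 20 reversed estimates passed it either. Over the libraries left out in turn, the log2 difference ran from -0.64 to 0.82 for Obp99a, -0.11 to 0.69 for CG8086, -1.22 to 0.15 for CG10019, -0.26 to 0.57 for CG14431, -0.71 to 0.014 for eys, -0.70 to 1.04 for ninaC, -0.51 to 0.67 for CG43861, -1.01 to 0.58 for Cpn, -1.04 to 1.77 for Gbeta76C, -0.52 to 0.059 for Nmdar1, -0.15 to 1.69 for CG15117, -0.075 to 0.71 for CG42342, -0.58 to 0.20 for Wdr62 and -0.18 to 0.61 for spg. Membership was 64 to 80 genes with 1 library left out, 72 to 83 under other scalings, pseudocounts or a lower floor of 5 RPKM, and 39 when the log2 gap of 1 had to hold between the lowest 60 h library and the highest library of the other ages. Over all genes, without 60 h replicates 1 and 2, 955 genes were lower at 60 h than at 40 h, and 552 rose and 459 fell to 72 h; with 1 library left out the count of genes rising to 72 h was 718 (without 72 h replicate 1) to 1210. Members lower at 72 h than at 40 h were 8 under quantile normalization and under the replicate block, and 4 to 8 with 1 library left out, while the higher members were 24 to 33. With 1 ATAC library left out, member peaks falling to 60 h were 17 to 81, rising to 72 h 0 to 16, falling to 72 h 11 to 98, higher at 72 h than at 40 h 46 to 74, lower 72 to 148, and rising then falling 3 to 29. With peaks within 1000 bp only, the counts were 12 and 14 to 60 h, 1 and 15 to 72 h, and 7 and 46 between 40 h and 72 h. Member peaks rising to 72 h were 4 under quantile normalization and 1 among the 57 members kept with 60 h replicate 3 alone. Without the 4 members with the most peaks (CG32206, SKIP, mim and CG42342, 96 peaks), 37 fell to 60 h and 11 of 218 rose then fell (5.05%, against 0.591%). Causes were not tested, beyond the fewer peaks or libraries that some alternatives hold by construction.

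Same-numbered libraries did not deviate together throughout (r -0.096 to 0.226 for RNA and -0.472 to 0.533 for ATAC), so the numbers were not taken to pair them. The replicate block gave 30 higher and 8 lower members from 40 h to 72 h, and 85 rising, 61 then falling and 16 rising and falling member peaks. Among single genes, the call of Psa was lost in 6 alternatives. Quantile normalization moved the median of all features by under 0.1 in every contrast. The planned search for promoter motifs was not run. The simulated ATAC test, with 200 changed peaks and 2 libraries an age, found 10% of changes of log2 1. That share is not the power of the real fit. With so few libraries an uncalled peak is still no sign of a level course.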
